A study of Mus musculus with 10 samples.

Results

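The subunits of the respiratory chain and of the ATP synthase, the protein complexes of the inner mitochondrial membrane that make ATP, were examined as RNA in the cochlea of hypothyroid and euthyroid mice. The genes were taken by symbol: the Nduf subunits of complex I with Ndufab1, the Sdh subunits of complex II, the Uqcr subunits of complex III with Cyc1, the Cox4 to Cox8 subunits of complex IV, and the Atp5 subunits of complex V. This gave 86 of the 18725 genes in the deposited table, of which 37 belong to complex I, 4 to complex II, 9 to complex III, 19 to complex IV and 17 to complex V. Ndufa4 was counted with complex IV, where its protein is known to sit. Of these 86 genes, 83 had enough reads to be tested. Cox6a2, Cox7b2 and Cox8c, the muscle and testis forms of complex IV subunits, had 6, 9 and 1 counts over all 10 libraries and were not tested. Subunits encoded by mitochondrial DNA were not analysed here.

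Complexes I to IV pass electrons from NADH and succinate to oxygen and, except for complex II, pump protons across the inner membrane, and complex V lets the protons back to make ATP. Thyroid hormone is a classical stimulus of mitochondrial respiration, acting through nuclear receptors and through coactivators of the PGC-1 family that work with the factors NRF1, GABP and the estrogen-related receptors. The cochlear lateral wall is rich in mitochondria and drives the ion transport behind the endocochlear potential.

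The hypothyroid group was 5 libraries from C57BL/6J mice whose mothers drank methimazole (0.05%) with the monohydrate of sodium perchlorate (1.0%) and sucrose (5.0%), begun at embryonic day 17 of the pregnancy and kept up during nursing. The euthyroid group was 5 libraries from mice of the same strain whose mothers drank vehicle, and both groups were sampled at postnatal day 10. The tissue was the outer sulcus, an epithelial strip beside the sensory organ of the cochlea, dissected with the spiral ligament beneath it. The extraction text in the labels instead names cartilage of the femoral head at another age, whereas all other labels name the cochlea. The labels do not say whether each library came from a separate animal, so p-values measure only the spread between these libraries, which may be technical. They do not give litters either, so a litter effect and the treatment cannot be told apart.

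The libraries held 19298261 to 19407657 counts in the hypothyroid group and 19781993 to 20064063 in the euthyroid group. All 10 markers of the outer sulcus and spiral ligament were detected, of which 8 were lower in the hypothyroid group, with summed levels, as counts scaled to the TMM-adjusted library size (CPM), of 8431 to 10881 CPM in hypothyroid and 18977 to 21856 CPM in euthyroid libraries. Among markers of other cells, 4 of 10 stria marginal cell genes were lower and 1 higher (1948 to 2981 CPM in hypothyroid and 3567 to 4355 CPM in euthyroid libraries), 7 of 10 pericyte and smooth muscle genes were lower and 1 higher (721 to 794 CPM in hypothyroid and 1380.4 to 1729.8 CPM in euthyroid libraries), 8 of 8 bone genes were lower (32.2 to 57.9 CPM in hypothyroid and 1057 to 1629 CPM in euthyroid libraries), and 6 of 8 tested hair cell genes were lower and 1 higher (35.5 to 45.6 CPM in hypothyroid and 49.0 to 106 CPM in euthyroid libraries). Macrophage genes were higher in 7 of 7 (359 to 479 CPM in hypothyroid and 221 to 249 CPM in euthyroid libraries), neuronal genes were split with 2 higher and 2 lower (43.8 to 58.2 CPM in hypothyroid and 24.7 to 34.3 CPM in euthyroid libraries), and 1 of 7 erythroid genes was lower (494 to 713 CPM in hypothyroid and 439.9 to 809.8 CPM in euthyroid libraries). Slc26a5 and Bglap2 had 0 counts in the hypothyroid group. Over all tested genes 34.1% were lower and 37.7% higher by the same test, so that a count such as 4 of 10 is near the background. The part of these levels in the results for the subunits was not tested, and in bulk tissue fewer cells of a type and less RNA per cell cannot be told apart.

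Subunit RNAs were lower in the hypothyroid libraries across all 5 complexes, with TMM scaling of the libraries. Of the 83 tested subunits, 74 were lower, 1 was higher and 8 fell short of the threshold (edgeR quasi-likelihood test, Benjamini-Hochberg adjusted p under 0.05 over all 14862 tested genes). The background in this comparison was large: 34.1% of all tested genes were lower and 37.7% higher by the same rule. For 64 subunits every hypothyroid library lay below every euthyroid library, which was the case for 28.5% of all tested genes, and for 1 subunit every hypothyroid library lay above, which was the case for 29.4%. The median log2 fold change, hypothyroid minus euthyroid, was -0.41 over the subunits and 0.04 over all tested genes. The change per subunit was modest: only Ndufa1, Cox7a1 and Cox8b were more than 1 log2 unit lower.

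**Figure D1:**
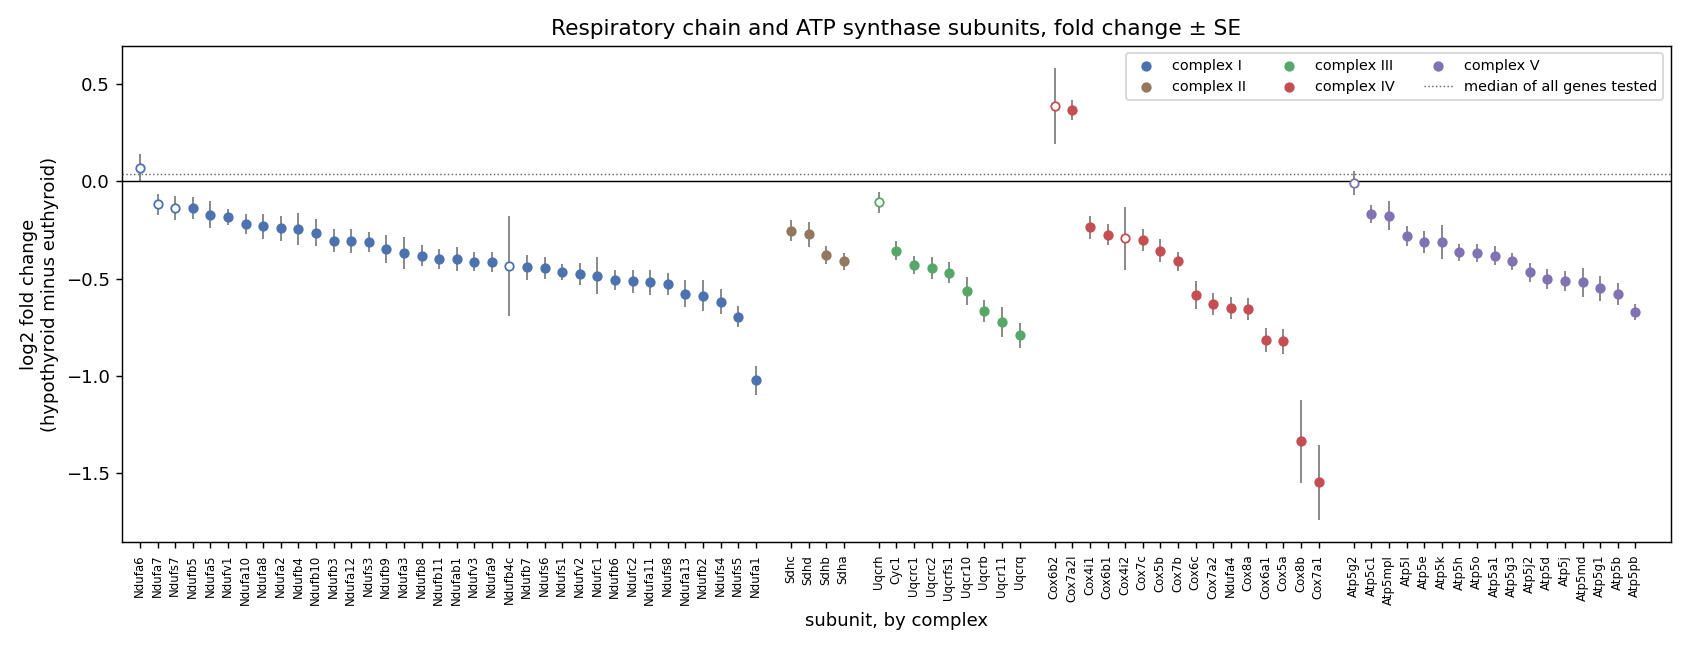
Log2 fold change (hypothyroid minus euthyroid, TMM-scaled counts, with approximate standard errors) of 82 tested subunits, grouped by complex, filled where they passed the test, with the median over all tested genes (0.04) as a line. Most points lie below 0 in every complex, and Cox7a2l lies above it as the only subunit that passed the test upward; with library sizes alone as the scale the median of all genes is 0.30 and 6 subunits pass upward.

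The size of these changes depends on how libraries are scaled: the TMM factors averaged 1.10 in hypothyroid and 0.912 in euthyroid libraries. With counts scaled to library size alone, the median of all tested genes was 0.30, and with upper quartile and RLE scaling it was 0.15 and 0.01. Under library size scaling 43 subunits were lower and 6 higher, against 19.7% and 58.2% of all tested genes. Under upper quartile scaling 62 were lower and 3 higher, against 27.9% and 46.5%, and under RLE scaling 77 were lower and 1 higher, against 35.8% and 36.0%. A change of scaling moves all genes by nearly the same amount, so the distance of the subunit median from the median of all genes, -0.45, is nearly the same under any of them by construction. In all, 43 of 83 subunits were lower under all 4 scalings, compared with 19.7% of all tested genes. Cox7a2l alone was higher under all 4, compared with 36.0%. These counts repeat those of library size scaling for lower genes and of RLE scaling for higher genes, so they add no separate support. These 43 were 16 of complex I, 2 of complex II, 7 of complex III, 9 of complex IV and 9 of complex V.

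**Figure D2:**
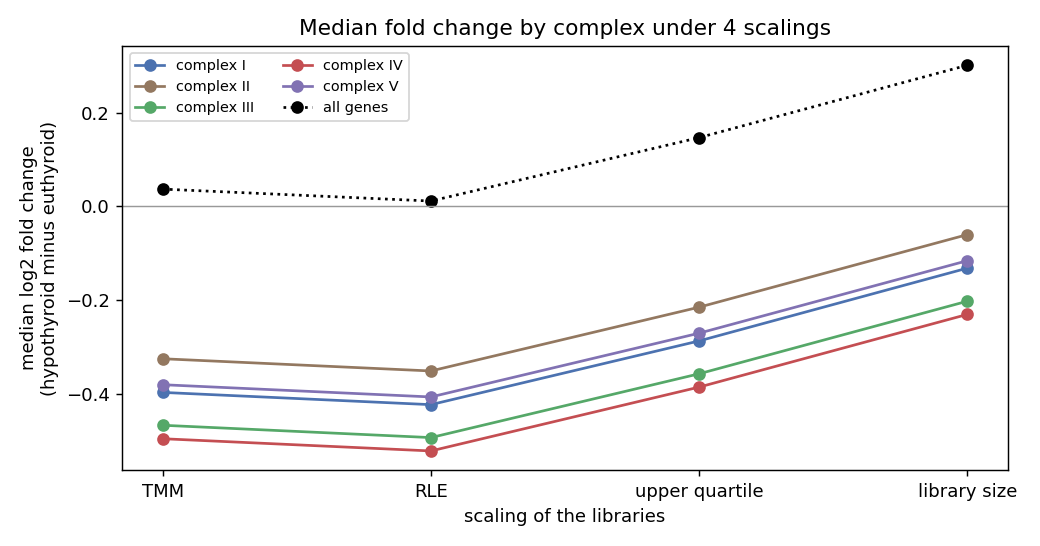
Median log2 fold change (hypothyroid minus euthyroid) of the tested subunits of each complex and of all tested genes under 4 library scalings. The lines move together because a scaling shifts all genes by nearly the same amount. The medians of the 5 complexes lie between -0.50 and -0.33 with TMM and between -0.23 and -0.06 with library sizes alone.

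Measured per length, the 86 subunits together took 1.76% of all transcript abundance (TPM) in the hypothyroid libraries, against 1.99% in the euthyroid libraries. Their summed level was 17568 ± 925 TPM in the hypothyroid libraries (SD, n = 5), against 19854 ± 174 TPM in the euthyroid libraries (SD, n = 5). The hypothyroid libraries ranged from 16643 to 19093 TPM, all below the euthyroid range of 19652 to 20064 TPM. Complex V held the largest share of this RNA, with 6082 ± 268 TPM in hypothyroid and 6887 ± 71.7 TPM in euthyroid libraries (SD, n = 5 each). Complex II held the least, with 681 ± 35.8 TPM in hypothyroid and 728 ± 17.5 TPM in euthyroid libraries (SD, n = 5 each).

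The subunits varied more among the hypothyroid libraries, a difference that was not tested. The median SD of log2 CPM of the subunits was 0.108 among hypothyroid libraries and 0.0660 among euthyroid libraries, whereas over all tested genes it was 0.122 among hypothyroid and 0.115 among euthyroid libraries. The mean log2 CPM over the subunits ran from 5.32 to 5.55 in the hypothyroid libraries and from 5.81 to 5.90 in the euthyroid libraries. Hypothyroid replicate 4 lay nearest to the euthyroid libraries and hypothyroid replicate 5 farthest from them. Among hypothyroid libraries, replicate 4 was also highest for every stria marginal cell marker counted above except Wnk2. There Kcne1 had 210 CPM, against 71.9 to 116 CPM in the other hypothyroid libraries, and Kcnq1 had 94.9 CPM, against 46.6 to 61.8 CPM. The part of this in the subunit levels was not tested.

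**Figure D3:**
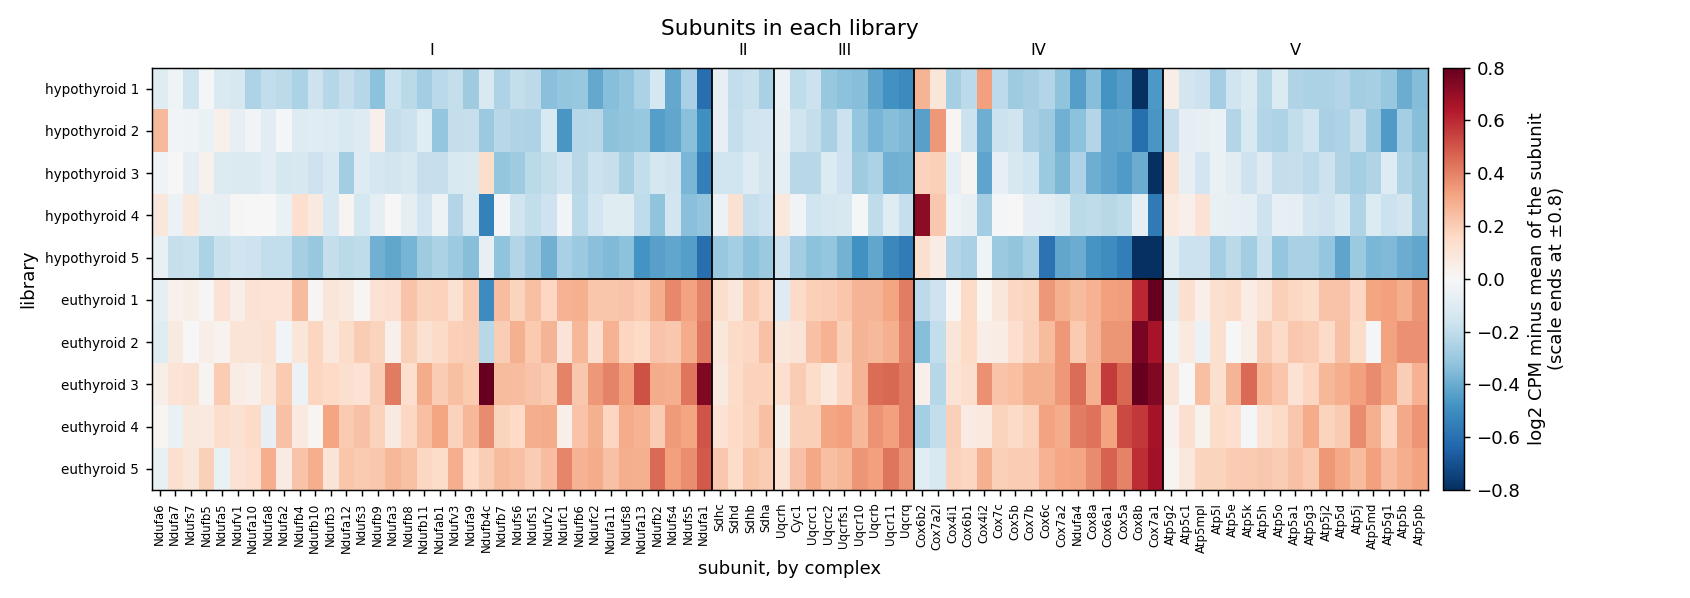
Log2 CPM (TMM-scaled) of 82 tested subunits in each library, minus the mean of that subunit over all 10 libraries (colour, blue below and red above), with subunits as columns by complex and hypothyroid libraries above euthyroid ones. Most columns are blue in the hypothyroid and red in the euthyroid libraries, Cox7a2l is the reverse, and hypothyroid replicate 5 is the bluest row.

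Differences between complexes can be taken within a library and then do not depend on scaling. The mean log2 CPM of complex III minus that of complex I was 0.63 to 0.73 in the hypothyroid libraries and 0.74 to 0.82 in the euthyroid libraries, with no overlap. For complex IV minus complex I it was -0.26 to -0.10 in the hypothyroid libraries and -0.07 to -0.03 in the euthyroid libraries, again with no overlap. These means weight every subunit equally. They were also taken without the subunits that had the lowest log2 fold changes in complexes IV and III, picked after the values were seen. Complex I kept all its subunits, including Ndufa1, its lowest. Leaving out the lowest subunits shrinks such a difference by construction. The values that follow therefore cannot decide whether the differences rest on a few subunits. With the muscle forms Cox7a1 and Cox8b left out, complex IV minus complex I was 0.34 to 0.46 in the hypothyroid libraries and 0.40 to 0.41 in the euthyroid libraries, so that the groups overlapped and the difference of their means was -0.0050, against -0.14 with both genes. With Uqcrq and Uqcr11 left out, complex III minus complex I was 0.97 to 1.04 in the hypothyroid libraries and 0.98 to 1.08 in the euthyroid libraries, with overlap and a difference of means of -0.0575, against -0.13 with both genes. The corresponding ranges for complex V were 1.26 to 1.31 in hypothyroid and 1.29 to 1.32 in euthyroid libraries, and for complex II they were 1.37 to 1.44 in hypothyroid and 1.29 to 1.41 in euthyroid libraries, both with overlap. The difference of complex medians was not tested.

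Because NRF1, GABP and the estrogen-related receptors are the known regulators of these genes, the promoters of the subunits were searched for their motifs. The search covered the 250 bases before every RefSeq start listed (GRCm38.p6), on both strands, for the 69 of 86 subunits with an entry. The NRF1 motif, GCGCA and GCGC with any 1 base between them, was found in 13 of them (18.8%), against 6.85% of 14791 genes of the same window. The motif AAGGTCA of the estrogen-related receptors was found in 5 (7.25%, against 3.93%), the ETS motif CCGGAAG of GABP in 12 (17.4%, against 11.9%), the YY1 motif AAGATGGC in 1 (1.45%, against 1.95%) and the direct repeat of AGGTCA with any 4 bases between the copies, the classical thyroid hormone receptor motif, in 0 (against 0.00676%). The motifs of the estrogen-related receptors and of the direct repeat share letters. The NRF1 and ETS motifs contain CpG, a C followed by a G. Promoters with fewer than 10 CpG, at 1 start per gene, made up 26.1% of the 69 subunits, against 41.6% of all genes. The part of CpG content in these motif shares was not tested. The median log2 fold change of the 13 subunits with the NRF1 motif was -0.31 and of those without it -0.41, while subunits with and without the receptor motif AAGGTCA had the same median, -0.41. The NRF1 motif stood before 12 subunits that were lower and before Atp5g2, which did not pass the test. That is near the share among all tested subunits, of which 74 of 83 were lower, against 34.1% of all tested genes. The lines below show the match in capitals, on the strand of the gene, for the 6 of these 13 subunits whose values in every library are given below. Their log2 fold changes were -0.01 for Atp5g2, -0.17 for Atp5c1, -0.27 for Sdhd, -0.41 for Sdha, -0.70 for Ndufs5 and -0.81 for Cox6a1. For Atp5c1 the window lies inside the gene span (chr2:10056030-10080510).
Atp5c1 (chr2:10080433-10080482, minus strand): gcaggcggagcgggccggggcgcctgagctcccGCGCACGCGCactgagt
Atp5g2 (chr15:102671060-102671109, minus strand): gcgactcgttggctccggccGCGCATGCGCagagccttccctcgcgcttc
Cox6a1 (chr5:115349091-115349140, minus strand): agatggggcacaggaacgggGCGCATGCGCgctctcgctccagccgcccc
Ndufs5 (chr4:123718255-123718304, minus strand): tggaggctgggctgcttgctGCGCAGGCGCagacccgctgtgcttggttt
Sdha (chr13:74350309-74350358, minus strand): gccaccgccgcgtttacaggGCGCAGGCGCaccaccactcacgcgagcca
Sdhd (chr9:50603899-50603948, minus strand): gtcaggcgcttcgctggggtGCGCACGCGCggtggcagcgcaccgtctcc
The motif of the estrogen-related receptors, here TGACCTT as read on the strand of the gene, is shown in capitals for Ndufs5, which carries both motifs, and for Atp5g3 of the c ring. For Atp5g3 the window lies inside the gene span (chr2:73908447-73912464).
Atp5g3 (chr2:73911351-73911400, minus strand): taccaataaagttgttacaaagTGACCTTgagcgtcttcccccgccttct
Ndufs5 (chr4:123718387-123718436, minus strand): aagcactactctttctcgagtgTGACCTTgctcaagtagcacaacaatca

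Complex I takes electrons from NADH. Of its 37 subunits, 33 were lower in hypothyroid libraries, 27 of them with no overlap between the groups, and the median log2 fold change was -0.40. The 7 core subunits, which bind NADH and carry the electrons, included 6 lower ones (median -0.31), and the 30 accessory subunits included 27 (median -0.40). Under library size scaling 16 of the 37 were lower and 2 higher.

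Ndufa1, a small accessory subunit of the membrane arm encoded on the X chromosome (chrX:37187588-37191238, GRCm38.p6), was the farthest down in complex I. In order of replicate, as in all lists of values here, it had 20.9, 22.6, 21.7, 25.4 and 20.9 CPM in hypothyroid libraries, against 41.8, 42.5, 53.0, 45.0 and 44.5 CPM in euthyroid libraries. Every hypothyroid library lay well below every euthyroid library, and the log2 fold change was -1.02 ± 0.07 (SE, adjusted p = 9.43e-09, 2.03-fold lower in hypothyroid libraries). Its span overlaps Rnf113a1, and strand was not stated. Ndufs5, an accessory subunit of the membrane arm whose promoter is shown above, had 24.3, 23.1, 22.6, 23.0 and 21.4 CPM in hypothyroid libraries, against 36.4, 35.8, 39.1, 36.3 and 37.7 CPM in euthyroid libraries. The groups again did not overlap (log2 fold change -0.70, adjusted p = 1.59e-08). Ndufc2, another membrane arm subunit and the one with the highest mean TPM in complex I, had 49.3, 56.2, 58.0, 58.9 and 52.0 CPM in hypothyroid libraries, against 76.3, 71.8, 83.2, 79.9 and 80.5 CPM in euthyroid libraries. It too was lower in each hypothyroid library (log2 fold change -0.51, adjusted p = 1.33e-06).

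The core subunits moved unevenly. Ndufs8, which carries iron-sulfur clusters, and Ndufs1, the largest subunit, were lower, with log2 fold changes of -0.53 and -0.47, and so was Ndufv2, which holds an iron-sulfur cluster near the NADH site (-0.47). Ndufv1, which binds NADH, had -0.18 with TMM scaling, and with library size scaling its sign turned, to 0.08. Ndufs7, near the ubiquinone site, did not pass the test (-0.14, adjusted p = 0.0665). Among accessory subunits, Ndufs4, whose loss in mice causes a disease resembling Leigh syndrome, had a log2 fold change of -0.62, Ndufa13 of -0.58 and Ndufab1, the mitochondrial acyl carrier protein, of -0.40. Ndufb4c, a close copy of Ndufb4 between which reads may have been divided, had -0.44 and did not pass (adjusted p = 0.149).

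Ndufa6 and Ndufa7, of the peripheral arm, had the highest log2 fold changes in complex I, and Ndufs7 and Ndufb5 came next (-0.14 each). Ndufa6 had 28.6, 36.7, 30.0, 32.6 and 29.4 CPM in hypothyroid libraries, against 29.1, 28.7, 31.7, 31.0 and 29.4 CPM in euthyroid libraries. The groups overlapped and the log2 fold change was 0.07 (adjusted p = 0.377), and 0.34 under library size scaling, where it passed (adjusted p = 3.73e-04). Ndufa7 had 39.0, 39.3, 40.0, 38.7 and 35.1 CPM in hypothyroid libraries, against 41.0, 42.0, 43.2, 38.5 and 43.7 CPM in euthyroid libraries. Only 1 euthyroid library, replicate 4, fell within the hypothyroid range (log2 fold change -0.12, adjusted p = 0.0612), and the sign was positive, 0.15, under library size scaling. Without euthyroid replicate 4 Ndufa7 passed (-0.15, adjusted p = 0.0231).

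Complex II, succinate dehydrogenase, links the citric acid cycle to the chain, and all 4 of its subunits were lower under TMM scaling (median log2 fold change -0.33). Sdha, the flavoprotein that oxidises succinate, had 184, 199, 199.96, 197 and 179.6 CPM in hypothyroid libraries, against 248, 260.4, 251, 261 and 254 CPM in euthyroid libraries. Sdhb, the iron-sulfur subunit, had 48.7, 49.3, 51.4, 48.6 and 44.0 CPM in hypothyroid libraries, against 63.6, 61.8, 62.6, 62.4 and 64.2 CPM in euthyroid libraries. Both were lower in each hypothyroid library (log2 fold change -0.41, adjusted p = 5.75e-07 for Sdha and -0.38, adjusted p = 3.90e-06 for Sdhb), and both were lower under all 4 scalings. The membrane anchors moved less. Sdhc had 103, 103, 96.4, 104 and 87.5 CPM in hypothyroid libraries, against 119, 115, 114, 117 and 126 CPM in euthyroid libraries. Its groups did not overlap (log2 fold change -0.25, adjusted p = 4.98e-04), but the value under library size scaling was 0.01. Sdhd had 65.8, 66.1, 67.4, 82.0 and 62.4 CPM in hypothyroid libraries, against 80.3, 83.8, 83.3, 84.2 and 83.5 CPM in euthyroid libraries. Hypothyroid replicate 4 lay within the euthyroid range (log2 fold change -0.27, adjusted p = 0.00123), and the call was lost under library size scaling (-0.0062, adjusted p = 0.936).

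Complex III passes electrons from ubiquinol to cytochrome c. Of its 9 subunits, 8 were lower, all 8 with no overlap between groups, and the median log2 fold change was -0.47. Uqcrq, a small subunit near the ubiquinone site, had 22.6, 25.2, 24.7, 28.3 and 21.8 CPM in hypothyroid libraries, against 42.7, 42.4, 42.9, 43.0 and 41.2 CPM in euthyroid libraries. The highest hypothyroid library lay far below the lowest euthyroid one (log2 fold change -0.79, adjusted p = 3.83e-08). Its span overlaps Gdf9. Uqcr11, a small membrane subunit, had 21.0, 23.3, 22.6, 27.6 and 20.6 CPM in hypothyroid libraries, against 36.7, 35.9, 40.6, 37.1 and 39.7 CPM in euthyroid libraries. Its groups did not overlap either (log2 fold change -0.72, adjusted p = 5.77e-07). Uqcrb, Uqcr10 and the catalytic Rieske protein Uqcrfs1 had log2 fold changes of -0.67, -0.56 and -0.47, and the core proteins Uqcrc1 and Uqcrc2 of -0.43 and -0.45. Cyc1, the heme protein cytochrome c1, had 66.2, 68.2, 65.3, 74.9 and 62.8 CPM in hypothyroid libraries, against 84.9, 81.9, 87.9, 87.0 and 89.8 CPM in euthyroid libraries. It was the least lowered of the 8 (log2 fold change -0.35, adjusted p = 1.61e-05) and the only 1 of them not to pass under library size scaling (-0.09, adjusted p = 0.135). Uqcrh, the hinge protein and the subunit with the highest mean TPM in complex III, had 92.0, 91.6, 90.1, 101 and 85.0 CPM in hypothyroid libraries, against 88.5, 101, 104, 98.4 and 103 CPM in euthyroid libraries. The groups overlapped (log2 fold change -0.11, adjusted p = 0.0936), with 0.16 and a call upward under library size scaling (adjusted p = 0.0187). Uqcrh passed as lower without euthyroid replicate 1 (-0.15, adjusted p = 0.0175) or hypothyroid replicate 4 (-0.14, adjusted p = 0.0271). Cycs, cytochrome c itself, which is not among the 86 genes, averaged 78.7 ± 6.84 CPM in hypothyroid and 129 ± 4.54 CPM in euthyroid libraries (SD, n = 5 each, log2 fold change -0.72, adjusted p = 2.24e-08).

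Complex IV, cytochrome c oxidase, hands the electrons to oxygen, and several of its subunits exist as a common form and a tissue-specific form. Of the 16 tested genes, 13 were lower, 1 was higher and 2 did not pass, and the median log2 fold change was -0.50. Of the common subunits, Cox4i1, which joins the mitochondrially encoded core early in assembly, had 187, 228, 215, 218 and 191 CPM in hypothyroid libraries, against 227, 241, 243, 257 and 255 CPM in euthyroid libraries. Hypothyroid replicate 2 lay just above euthyroid replicate 1 (log2 fold change -0.24, adjusted p = 0.00207), and the sign turned, to 0.03, under library size scaling. It had the highest mean TPM in complex IV, at 788 ± 59.5 TPM in hypothyroid and 794 ± 31.9 TPM in euthyroid libraries (SD, n = 5 each).

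The other common subunits were lower as well. Cox6a1 had 49.7, 51.6, 51.7, 59.4 and 49.0 CPM in hypothyroid libraries, against 86.8, 88.3, 102, 86.5 and 95.7 CPM in euthyroid libraries. Its groups did not overlap (log2 fold change -0.81, adjusted p = 1.65e-08), and Cox5a, which binds a thyroid hormone metabolite in biochemical studies of the bovine enzyme, had -0.82 (adjusted p = 1.83e-08). Cox8a had 68.8, 73.9, 66.4, 75.6 and 62.7 CPM in hypothyroid libraries, against 106, 105, 106, 118 and 113 CPM in euthyroid libraries. Ndufa4 had 60.7, 65.4, 69.3, 70.9 and 62.4 CPM in hypothyroid libraries, against 97.8, 95.0, 112, 109 and 102 CPM in euthyroid libraries. Cox7a2 had 51.6, 49.4, 50.1, 59.9 and 48.4 CPM in hypothyroid libraries, against 78.5, 81.9, 81.9, 79.2 and 79.8 CPM in euthyroid libraries. In each of these 3 subunits, every hypothyroid library lay below every euthyroid library (log2 fold changes -0.65, -0.65 and -0.63, adjusted p = 5.82e-08, 9.15e-08 and 8.90e-08). Cox6c and Cox5b had log2 fold changes of -0.58 and -0.35. Cox7b had 46.9, 47.1, 50.5, 53.4 and 47.0 CPM in hypothyroid libraries, against 63.9, 64.1, 68.7, 64.0 and 64.9 CPM in euthyroid libraries. Cox6b1 had 66.1, 67.9, 77.6, 73.2 and 63.8 CPM in hypothyroid libraries, against 84.9, 85.7, 84.5, 79.9 and 86.1 CPM in euthyroid libraries. Both had no overlap between groups, at -0.41 for Cox7b and -0.27 for Cox6b1 on the log2 scale (adjusted p = 2.62e-06 and 3.45e-04). Under library size scaling Cox6b1 did not pass (-0.0084, adjusted p = 0.894).

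Cox7a2l, also called SCAF1, joins complexes III and IV in supercomplexes, although the form carried by C57BL/6 mice is known to be shortened and unable to do so. It was the single subunit that was higher. It had 159, 189, 169.6, 172 and 155 CPM in hypothyroid libraries, against 132, 129.8, 127, 129.5 and 137 CPM in euthyroid libraries. All hypothyroid libraries lay above all euthyroid libraries, and the log2 fold change was 0.37 ± 0.05 (SE, adjusted p = 1.54e-05; chr17:83501917-83514333, GRCm38.p6). Set against Cox7a2 within the same library, the Cox7a2l to Cox7a2 ratio in TPM was 225% ± 24.5 in hypothyroid and 112% ± 4.79 in euthyroid libraries (SD, n = 5 each).

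The muscle forms had the lowest log2 fold changes of the 83 subunits. Cox7a1, the form typical of heart and skeletal muscle (chr7:30184171-30186030), had 2.48, 2.47, 1.78, 2.31 and 1.18 CPM in hypothyroid libraries, against 8.0, 5.39, 5.70, 5.41 and 5.43 CPM in euthyroid libraries. Every hypothyroid library was below every euthyroid one, at a log2 fold change of -1.55 ± 0.19 (SE, adjusted p = 3.16e-06, 2.92-fold lower in hypothyroid libraries). Cox8b, the muscle form of Cox8a (chr7:140898942-140900446), had 0.748, 1.38, 1.59, 1.98 and 1.08 CPM in hypothyroid libraries, against 3.19, 3.56, 4.18, 3.10 and 3.16 CPM in euthyroid libraries. This was -1.33 ± 0.21 on the log2 scale (SE, adjusted p = 4.28e-05, 2.52-fold lower). Both had low levels, at 17.0 and 11.4 TPM in hypothyroid libraries, against 42.6 and 24.6 TPM in euthyroid libraries. Of 15 striated muscle markers only 4 had enough reads to be tested, 1 higher and 1 lower. The higher one was Tnnt3, fast troponin T, with 260 counts in the hypothyroid and 43 in the euthyroid group (log2 fold change 2.35, adjusted p = 1.22e-07). The lower one was Mb, myoglobin, with 58 counts in the hypothyroid and 94 in the euthyroid group (-0.91, adjusted p = 0.0250), whose call was lost under library size scaling (-0.65, adjusted p = 0.0958). The summed level of the 15 was 15.9 to 18.7 CPM in hypothyroid and 13.4 to 17.3 CPM in euthyroid libraries. Most of it was Des, with means of 12.9 CPM in hypothyroid and 12.6 CPM in euthyroid libraries. Myh1 and Myh4 had 0 counts in the hypothyroid group, against only 5 and 3 in the euthyroid group. Of other genes with too few reads to test, Myh3 had 1 count in the hypothyroid and 35 in the euthyroid group, and Tnni2 had 21 and 9. The part of these muscle genes in the lower Cox7a1 and Cox8b was not tested.

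The promoters of these 2 muscle forms also differ in letters from those of their common partners. In the 250 bases before 1 annotated start per gene, the subunits held a median of 14 CpG and all genes with a promoter 12. Cox8b, with 1, had the fewest of the 69 subunits, and Cox7a1 and Ndufc2, with 4 each, came next. The lines below give the 100 bases before that start for each gene of the pairs, on the strand of the gene, with CpG in capitals. For Cox7a2 the start used lies inside the gene span (chr9:79755241-79771422).
Cox7a1 (chr7:30184071-30184170, plus strand): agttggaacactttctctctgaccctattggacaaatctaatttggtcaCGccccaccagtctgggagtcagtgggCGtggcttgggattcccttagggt
Cox7a2 (chr9:79759854-79759953, minus strand): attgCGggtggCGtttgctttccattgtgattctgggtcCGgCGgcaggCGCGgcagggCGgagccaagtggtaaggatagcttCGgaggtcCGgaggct
Cox8b (chr7:140900447-140900546, minus strand): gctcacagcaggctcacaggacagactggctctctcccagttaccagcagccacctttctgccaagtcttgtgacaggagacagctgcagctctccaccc
Cox8a (chr19:7217617-7217716, minus strand): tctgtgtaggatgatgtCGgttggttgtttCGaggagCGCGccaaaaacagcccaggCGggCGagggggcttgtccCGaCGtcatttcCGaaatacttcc
These windows hold 2 CpG for Cox7a1, 9 for Cox7a2, 0 for Cox8b and 9 for Cox8a.

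The remaining complex IV variants did not pass the test. Cox4i2, a form known from lung and from pericytes and induced by low oxygen, had 4.30, 2.62, 2.56, 2.82 and 3.35 CPM in hypothyroid libraries, against 3.46, 3.56, 4.40, 3.61 and 4.16 CPM in euthyroid libraries. The groups overlapped (log2 fold change -0.29, adjusted p = 0.113), though it passed without hypothyroid replicate 1 (-0.43, adjusted p = 0.0148). Of the pericyte and smooth muscle markers 7 of 10 were lower, as given above, and their part was not tested. Cox6b2, the testis form of Cox6b1, had 2.71, 1.66, 2.56, 3.69 and 2.45 CPM in hypothyroid libraries, against 1.95, 1.78, 2.31, 1.86 and 2.11 CPM in euthyroid libraries. Hypothyroid replicate 2 lay below the euthyroid range and the other hypothyroid libraries above it (log2 fold change 0.39, adjusted p = 0.0843). Cox6b2 passed without that library (0.51, adjusted p = 0.0150) and under library size scaling (0.65, adjusted p = 0.00684).

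**Figure D4:**
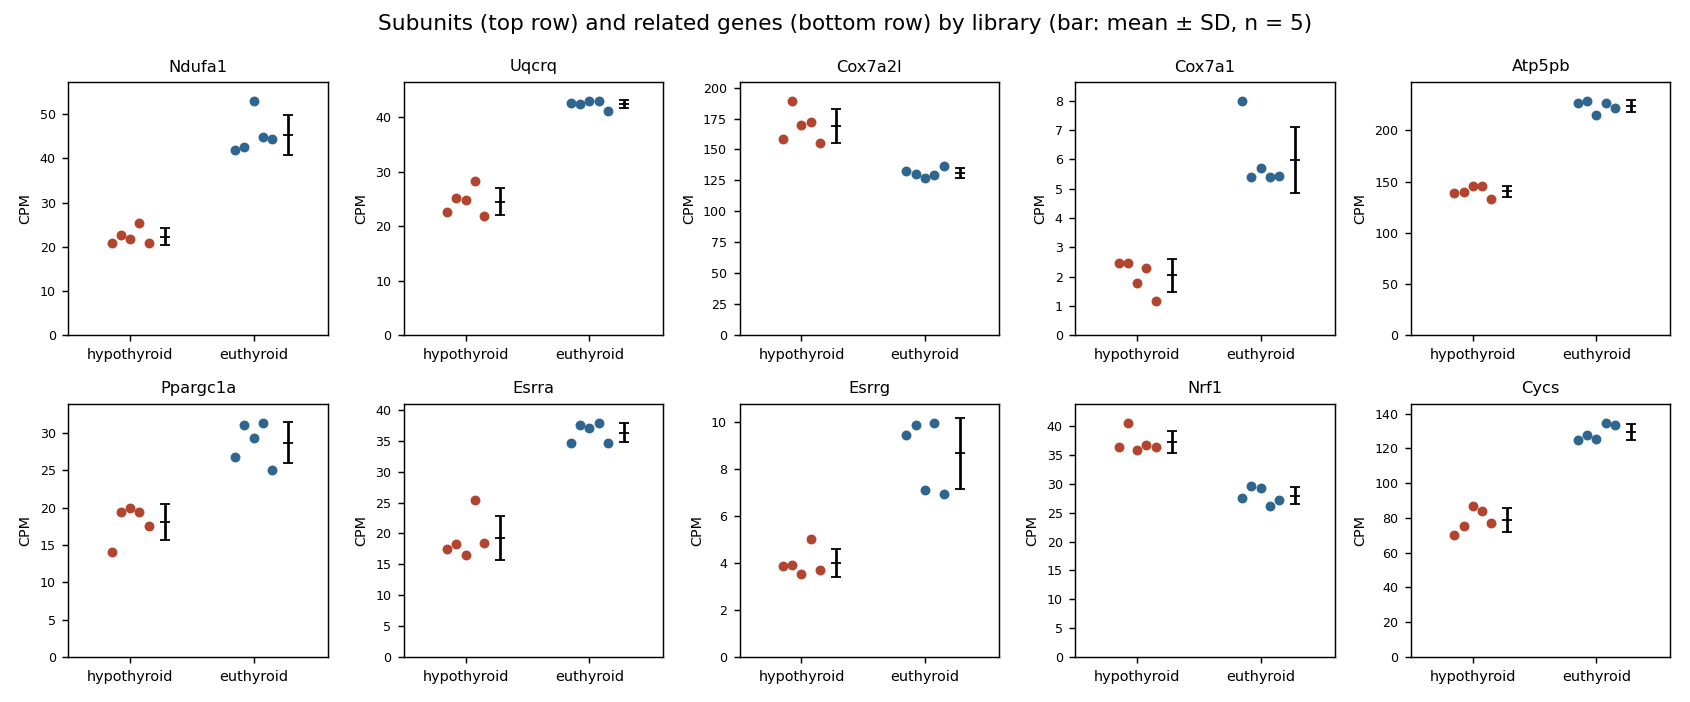
Levels of selected genes in CPM (TMM-scaled) in each library, hypothyroid left of euthyroid, with 1 point per library and bars for mean ± SD (n = 5), on axes that start at 0. Cox7a2l lies higher in hypothyroid libraries and Cox7a1 lies lower, without overlap in either.

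Complex V uses the proton gradient to make ATP, and 16 of its 17 subunits were lower, 14 with no overlap (median log2 fold change -0.38), though 9 were lower and 1 higher under library size scaling. The 4 peripheral stalk subunits and the 5 subunits of the F1 head were all lower, with medians of -0.44 and -0.38. Atp5b, the catalytic beta subunit, with the highest TPM of the 86 genes averaged over all 10 libraries (in the hypothyroid libraries alone Cox4i1 was higher), had 493, 538, 548, 587 and 494 CPM in hypothyroid libraries, against 793, 834, 745, 801 and 794 CPM in euthyroid libraries. Its groups were far apart (log2 fold change -0.58, adjusted p = 1.86e-07). Atp5pb, subunit b of the peripheral stalk, had 139, 139.9, 146, 145 and 133 CPM in hypothyroid libraries, against 227, 229, 215, 227 and 222 CPM in euthyroid libraries. It had the smallest adjusted p of all the subunits (log2 fold change -0.67 ± 0.04 SE, adjusted p = 1.08e-09). Atp5c1, the gamma subunit of the rotating central stalk, had 174, 183, 183, 198 and 170.4 CPM in hypothyroid libraries, against 210.3, 203, 193, 209.8 and 204 CPM in euthyroid libraries. The groups overlapped (log2 fold change -0.17, adjusted p = 0.00517), and the sign turned, to 0.10, under library size scaling. Of the 5 small membrane subunits, all of which were lower, Atp5md and Atp5j2 had log2 fold changes of -0.52 and -0.47, and Atp5mpl of -0.18.

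The c ring turns with the proton flow, and its subunit is made by 3 genes whose mature proteins are the same. Atp5g1 had 40.1, 36.1, 45.9, 43.8 and 38.7 CPM in hypothyroid libraries, against 61.9, 61.6, 61.4, 55.7 and 58.7 CPM in euthyroid libraries. Atp5g3 had 156, 166, 159.9, 167 and 154 CPM in hypothyroid libraries, against 205, 213, 208, 228 and 214 CPM in euthyroid libraries. Both were lower in every hypothyroid library (log2 fold change -0.55, adjusted p = 1.64e-06 for Atp5g1 and -0.41, adjusted p = 5.47e-07 for Atp5g3). Atp5g2 had 62.2, 52.7, 65.1, 63.2 and 56.0 CPM in hypothyroid libraries, against 56.5, 58.6, 64.2, 61.2 and 60.5 CPM in euthyroid libraries. The groups overlapped and the log2 fold change was -0.01 (adjusted p = 0.909). Because the coding sequences are similar, reads may have been divided between the 3 genes.

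Ratios between related subunits of 1 library do not depend on scaling, so they show whether forms of a subunit moved unequally. Of 11 pairs, 8 had both genes above the count filter. In 5 of them the groups did not overlap and the exact permutation test gave p = 0.00794, the smallest p that 5 against 5 libraries allow (two-sided, 0.0127 after Benjamini-Hochberg adjustment over the 8 pairs). How often ratios of other gene pairs keep the groups apart was not counted. Of all tested single genes, 28.5% did so downward and 29.4% upward. The second genes of these 5 pairs, Cox7a2, Cox8a, Atp5g3 and Ndufa4, were themselves lower with no overlap. The log2 ratio of Cox7a2l to Cox7a2 was 1.00 higher in hypothyroid than in euthyroid libraries, while the difference (hypothyroid minus euthyroid) was -0.94 for Cox7a1 to Cox7a2 and -0.73 for Cox8b to Cox8a. In Cox8b to Cox8a the gap was narrow, since hypothyroid replicate 4 (4.149%) lay next to euthyroid replicate 4 (4.162%) in TPM. The ratio of Atp5g2 to Atp5g3 was 0.40 higher, and that of Ndufa4l2, a relative of Ndufa4 known to be induced by low oxygen, to Ndufa4 was 0.55 higher.

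In TPM, Cox7a1 stood at 8.77% ± 2.32 of Cox7a2 in hypothyroid and 16.7% ± 3.41 in euthyroid libraries, and Cox8b at 3.07% ± 0.953 of Cox8a in hypothyroid and 4.99% ± 0.828 in euthyroid libraries (SD, n = 5 each). The c ring gene Atp5g2 stood at 41.6% ± 4.05 of Atp5g3 in hypothyroid and 31.4% ± 1.70 in euthyroid libraries, and Ndufa4l2 at 7.87% ± 1.68 of Ndufa4 in hypothyroid and 5.31% ± 0.684 in euthyroid libraries (SD, n = 5 each). Ndufa4l2 itself had a log2 fold change of -0.09 and did not pass (adjusted p = 0.578). The Cox6b2 to Cox6b1 ratio was 0.62 higher in hypothyroid libraries, with overlap (exact permutation p = 0.0159, adjusted 0.0212). The ratios of Atp5g1 to Atp5g3 and of Cox4i2 to Cox4i1 differed by -0.14 and -0.08 and did not pass (exact permutation p = 0.127 and 0.714, adjusted 0.145 and 0.714).

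**Figure D5:**
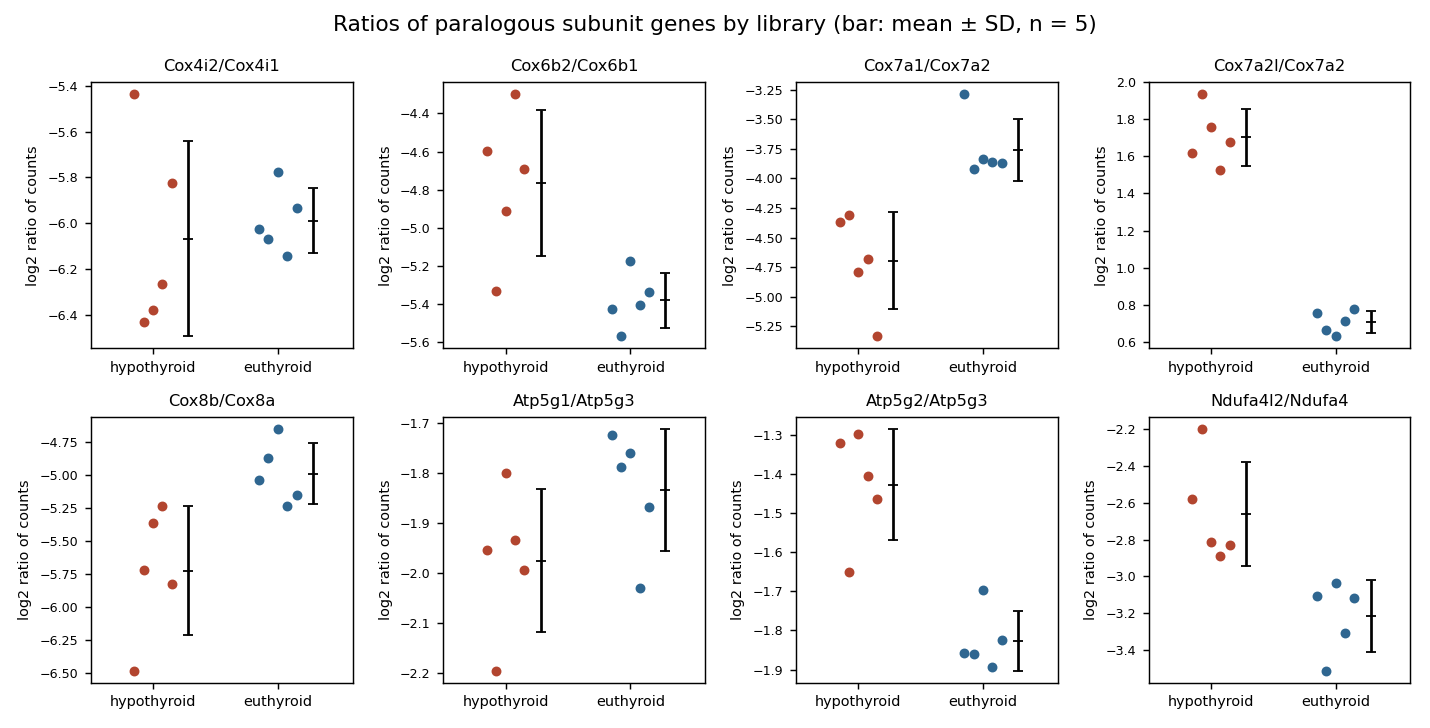
Log2 ratio of the counts of 2 related genes in each library for the 8 pairs tested, hypothyroid left of euthyroid, with 1 point per library and bars for mean ± SD (n = 5). The Cox7a2l to Cox7a2 ratio lies higher and the Cox7a1 to Cox7a2 and Cox8b to Cox8a ratios lie lower in each hypothyroid library than in any euthyroid library.

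Genes that serve the chain without being part of it were counted in the same way, beside 34.1% lower and 37.7% higher of all tested genes, or 19.7% lower and 58.2% higher under library size scaling. Of 48 tested assembly factors, which help to build the complexes, 15 were lower, 5 higher and 28 neither (median -0.10 on the log2 scale), and under library size scaling 2 were lower and 23 higher. The share of lower assembly factors with TMM was close to the background. Cox19, which takes part in copper delivery to complex IV, stood at -0.46 on the log2 scale (adjusted p = 4.40e-06), Tmem70, needed for complex V, at -0.41 (adjusted p = 1.28e-05) and Sdhaf2, which helps attach the flavin of Sdha, at -0.29 (adjusted p = 8.80e-05). Of 19 membrane and import genes, 14 were lower, 2 higher and 3 did not pass (median -0.18), with 4 lower and 7 higher under library size scaling. Their 3 smallest adjusted p belonged to Cs (citrate synthase, 149 ± 4.05 CPM in hypothyroid and 216 ± 2.75 CPM in euthyroid libraries, log2 fold change -0.53, adjusted p = 6.11e-09), Timm23 of the inner membrane import channel (-0.68, adjusted p = 3.08e-08) and the outer membrane channel Vdac2 (-0.52, adjusted p = 5.90e-08).

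The known regulators of the subunit genes and of mitochondrial DNA, taken as 1 list, went both ways. Of 21, 9 were higher, 4 lower and 8 neither (median 0.12 on the log2 scale), beside 37.7% higher and 34.1% lower of all tested genes. Under library size scaling 15 were higher, beside 58.2% of all tested genes. Of the 3 estrogen-related receptors, Esrra and Esrrg were lower. Esrrb, named here after its values were seen, had 112 ± 51.4 CPM in hypothyroid and 68.5 ± 10.9 CPM in euthyroid libraries (SD, n = 5 each). Esrrb is also among the stria marginal cell markers counted above, and its highest library was hypothyroid replicate 4 (201 CPM). Its log2 fold change was 0.71 and did not pass with TMM scaling (adjusted p = 0.0505), but it was higher with library size scaling (0.98, adjusted p = 0.0128). Esrra had 19.2 ± 3.53 CPM in hypothyroid and 36.3 ± 1.61 CPM in euthyroid libraries (SD, n = 5 each, log2 fold change -0.92, adjusted p = 7.51e-07), and Esrrg 4.01 ± 0.590 CPM in hypothyroid and 8.66 ± 1.52 CPM in euthyroid libraries (-1.11, adjusted p = 4.30e-06). Ppargc1a, the coactivator PGC-1 alpha, had 18.1 ± 2.43 CPM in hypothyroid and 28.7 ± 2.79 CPM in euthyroid libraries (-0.67, adjusted p = 1.54e-05). These 3 genes were lower under library size scaling too, at -0.65, -0.84 and -0.40. Nrf1 was higher, with 37.2 ± 1.92 CPM in hypothyroid and 28.0 ± 1.45 CPM in euthyroid libraries (0.41, adjusted p = 9.13e-06), as was Twnk, the helicase of mitochondrial DNA (0.71, adjusted p = 7.89e-06). Tfam, which packs and transcribes mitochondrial DNA, and Gabpa, the DNA-binding part of GABP, were higher by 0.14 and 0.12 (adjusted p = 0.0128 and 0.0257). The call for Gabpa was lost without euthyroid replicate 1, 3 or 5 or hypothyroid replicate 2, 3 or 5 (adjusted p = 0.0520 to 0.0713).

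Gene length and level were also compared, since subunit genes are short and mostly well expressed. With all tested genes split into 5 equal classes by length, 77 of the 83 tested subunits fell in the shortest class, whose median log2 fold change over all genes was -0.01. By level, 23 fell in the highest of 5 classes (median over all genes -0.17) and 33 in the one below it (-0.04). Over the 83 subunits the Spearman correlation of fold change with relative length was 0.05, as a description, since these genes share libraries. The gene spans of 27 subunits overlap another annotated gene, and strand was not stated, so reads there could not be told apart.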

How the data were processed

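RNA of mouse outer sulcus with spiral ligament was sequenced in 5 hypothyroid and 5 euthyroid libraries, as polyadenylated RNA in single reads per the labels' protocols. The submitters' processing notes name build GRCm38.p6 and the tools RSEM 1.2.12, HISAT2 2.0.4 and Bowtie2 2.2.5, without their roles. The deposited table holds estimated counts (expected counts) per gene and library, and the authors also deposited TPM, a level per gene length, per the file headers. Other deposited values and the authors' 8 columns of group means were not used.

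The estimated counts were rounded to whole numbers. Genes were filtered with filterByExpr (minimum count 10), scaled with TMM and tested with edgeR 4.0.16 (R 4.3.3, glmQLFit robust, glmQLFTest, group as the only term, two-sided), with Benjamini-Hochberg adjustment over the whole table. The approximate standard error was derived from the F statistic of each gene. CPM uses the TMM-adjusted library size. Ratios of 2 genes were taken as log2 of counts plus 0.5 and tested by exact permutation over all 252 splits. Promoters came from RefSeq. The edgeR fit was tested on simulated data. Alternatives were RLE, upper quartile and library size scaling, no count filter, DESeq2 1.42.0, limma 3.58.1 on log2(TPM + 1) for genes with a mean of at least 1 TPM, a replicate block, grouping by symbol prefix, and each library left out.

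The single values of 1 subunit are not reported here, although counts and medians include it. The subunits, gene lists and markers were chosen with earlier results of these data known. Values in every library are given for the 2 subunits farthest up and the 2 farthest down in each complex, the one with the highest TPM, and those of the ratio pairs; other values for named genes follow their role. From each list the 3 genes with the smallest adjusted p are named, and 6 genes known as regulators or partners. No library was a duplicate of another: among the 20 same-group pairs, counts differed beyond sampling noise (chi-square averaged over genes, 5.30 to 15.6). Total counts per library set a precision that for the subunits is limited mostly by the spread between libraries.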

Additional observations from a re-analysis of the deposited data

Results flagged for a closer look

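In 88 checks of a group of 5 libraries (44 quantities in each group), 8 values lay far from the other 4 of their group by Dixon's test, and chance flags about 1 in 20. Ndufa7 was low in hypothyroid replicate 5, at 5.13 log2 CPM against 5.27 for the nearest library. Hypothyroid replicate 4 was high for Sdhd, at 6.36 against 6.07, and for Cox6a1, at 5.89 against 5.69. Among euthyroid libraries, replicate 1 was low for Sdhd, at 6.33 against 6.38, and high for Cox7a1, at 2.999 against 2.51. The Cox7a1 to Cox7a2 log2 ratio was likewise high in euthyroid replicate 1, at -3.29 against -3.84. Cox6b1 was low in euthyroid replicate 4, at 6.32 against 6.40, and Cox7b was high in euthyroid replicate 3, at 6.10 against 6.02. The cause of these values was not tested.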

How the results depend on the processing

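Scaling moved the results most. With library sizes alone, the subunits gave 6 higher and 43 lower calls (median -0.14): complex I 2 and 16 (-0.13), complex II 2 lower (-0.0602), complex III 1 higher (-0.20), complex IV 2 higher (-0.23) and complex V 1 and 9 (-0.12). Assembly factors then gave 23 and 2, regulators 15 higher, membrane and import genes 7 and 4, and signs turned for Ndufa7 (0.15), Sdhc (0.0123), Uqcrh (0.16), Cox4i1 (0.0300), Atp5g2 (0.26) and Atp5c1 (0.10). With the upper quartile, 3 subunits were higher (median -0.30): complex I 1 (-0.29) and complex IV 2, with medians of -0.22, -0.36 and -0.27 in complexes II, III and V, 11 assembly factors higher, 8 membrane and import genes lower, and Uqcrh (0.0034) and Atp5g2 (0.10) reversed. With limma on log2(TPM + 1), 5 subunits were higher (-0.18): complex I 2 and 19 lower (-0.17), complex II 2 lower (-0.10), complex III at -0.24, complex IV 2 higher (-0.27) and complex V 1 (-0.17), with 22 and 6 assembly factors, 15 regulators higher, 5 and 5 membrane and import genes, and Ndufa7 (0.11), Uqcrh (0.12), Atp5g2 (0.22) and Atp5c1 (0.0592) reversed. RLE, DESeq2 and the replicate block each left 3 assembly factors higher.

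Same-numbered libraries did not pair (correlation of deviations -0.08 to 0.15, and 2 of 5 hypothyroid libraries best with their own number). With the replicate block the adjusted p of every ratio was 0.0833 or above, which is the least that 5 pairs allow here, at the same differences of 1.00 (Cox7a2l), -0.94 (Cox7a1), -0.73 (Cox8b), 0.62 (Cox6b2), 0.55 (Ndufa4l2) and 0.40 (Atp5g2).

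In alternatives chosen after seeing the data, the difference (hypothyroid minus euthyroid) of complex IV minus complex I was -0.0050 without Cox7a1 and Cox8b, and that of complex III minus complex I was -0.0575 without Uqcrq and Uqcr11.

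Leaving out each library gave 71 to 75 subunits lower and 1 to 2 higher (complex IV 1 to 2), 3 to 5 assembly factors higher, -0.0404 to 0.0354 for Atp5g2, and ratio differences of -0.24 to 0.0132 for Cox4i2 to Cox4i1 and -0.19 to -0.0868 for Atp5g1 to Atp5g3, the last with adjusted p = 0.0454 (exact permutation test) without euthyroid replicate 4. Without hypothyroid replicate 2, Cox6b2 was the second subunit higher. Depth limits the low genes Cox7a1, Cox8b, Cox6b2 and Cox4i2.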
